A study of Mus musculus with 6 samples.

Results

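Interferon regulatory factors (IRFs) and signal transducers and activators of transcription (STATs) are the transcription factors that carry interferon and related cytokine signals to the genome. The members described here are the 9 mouse genes Irf1, Irf2, Irf3, Irf5, Irf7, Irf8, Irf9, Stat2 and Stat3, out of 19057 genes with a named probe. They were chosen by gene symbol, and their 18 probes are all of the probes that the platform annotation pairs with these symbols or their synonyms. Of these, 15 probes of 7 genes were bright enough to be tested, and 3 probes, among them the only probes of Irf7 and Irf8, were not.

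RNA came from 2 lines of mouse embryonic fibroblasts (MEFs), with 3 arrays per line. Dnmt1 encodes the maintenance DNA methyltransferase, and Dnmt1-/- MEFs are homozygous for a hypomorphic Dnmt1 allele and severely hypomethylated. Both lines are also Trp53-/-, and the strain background is given as unknown. Only 1 line per genotype is described, and an effect of genotype therefore cannot be told apart from a difference between lines. Whether the 3 replicates of a line were grown separately is not stated, and the p-values rest on a spread between arrays that may be technical. The comparison asks how expression differs in hypomethylated cells.

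In a resting cell most of these factors are latent. IRF3 and IRF7 are phosphorylated by kinases downstream of nucleic acid sensors and switch on type I interferon genes, while IRF5 acts downstream of the adaptor MyD88. Interferon binding to its receptor activates JAK kinases, and the STAT2 and IRF9 proteins enter the complex ISGF3, which binds interferon-stimulated response elements (ISREs). Activated STAT dimers bind gamma-activated sites (GAS elements), one of which lies in the Irf1 promoter, and IRF1 in turn drives genes of antigen presentation. Several of the genes, Irf1, Irf7, Irf9 and Stat2 among them, are themselves induced by interferon. STAT3 carries signals of the gp130 cytokines, IRF2 competes with IRF1 for its sites, and IRF8 is a factor of blood cell lineages. The arrays measured RNA and say nothing of phosphorylation.

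Promoter sequences are shown for the 4 members with the largest differences, Irf1, Irf5, Irf9 and Stat2, because CG dinucleotides are what Dnmt1 methylates. They are RefSeq sequences of build GRCm38.p6 that run from 250 bases before to 50 bases after an annotated gene start, 5′ to 3′, on the plus strand, with each CG in capitals. No methylation was measured here.

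Irf1, chr11:53769764-53770063: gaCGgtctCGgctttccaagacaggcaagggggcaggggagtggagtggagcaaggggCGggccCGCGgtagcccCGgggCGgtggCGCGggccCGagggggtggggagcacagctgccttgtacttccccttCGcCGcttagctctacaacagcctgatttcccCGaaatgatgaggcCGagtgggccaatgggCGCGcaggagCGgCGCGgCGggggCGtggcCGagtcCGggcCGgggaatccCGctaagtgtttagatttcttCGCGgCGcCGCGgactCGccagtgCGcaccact

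Irf5, chr6:29526375-29526674: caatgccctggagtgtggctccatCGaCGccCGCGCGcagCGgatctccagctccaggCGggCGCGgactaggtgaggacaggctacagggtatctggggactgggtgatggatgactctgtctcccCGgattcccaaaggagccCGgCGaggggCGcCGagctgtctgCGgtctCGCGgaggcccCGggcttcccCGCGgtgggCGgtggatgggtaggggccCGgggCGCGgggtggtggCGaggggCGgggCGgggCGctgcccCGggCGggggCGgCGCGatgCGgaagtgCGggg

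Irf9, chr14:55603735-55604034: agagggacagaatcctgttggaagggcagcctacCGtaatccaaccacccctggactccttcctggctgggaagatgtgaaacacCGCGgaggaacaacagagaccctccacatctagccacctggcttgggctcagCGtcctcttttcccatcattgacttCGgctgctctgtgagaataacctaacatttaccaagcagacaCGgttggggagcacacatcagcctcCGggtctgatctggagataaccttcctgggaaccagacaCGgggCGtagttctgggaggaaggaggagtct

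Stat2, chr10:128270248-128270547: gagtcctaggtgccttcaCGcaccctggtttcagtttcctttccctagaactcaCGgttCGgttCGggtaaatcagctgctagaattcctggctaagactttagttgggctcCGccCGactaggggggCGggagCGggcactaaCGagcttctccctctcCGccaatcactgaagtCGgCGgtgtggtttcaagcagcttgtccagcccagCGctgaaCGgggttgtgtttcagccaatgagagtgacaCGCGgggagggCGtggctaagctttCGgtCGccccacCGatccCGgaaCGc

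The windows differed in CG content. Irf5 held 35 CGs and Irf1 held 32, and 6.95% and 9.52% of all 32851 promoter windows held at least as many. Stat2 held 22 (23.1% of windows had at least as many) and Irf9 held 9 (45.8%), against a median of 7 over all windows. Irf1 and Irf9 each have another annotated start, whose windows held 43 and 1 CGs. The Irf5 window lies wholly inside the annotated gene, which begins at chr6:29526130. The GAS letters TTCNNNGAA, which read alike on both strands, matched the Irf1 window at TTCCCCGAA (chr11:53769924-53769932), and 8.3% of all windows held a match. The ISRE core, TTTC, any 2 bases and TTTC again, searched on both strands, matched the Stat2 window at TTTCAGTTTC (chr10:128270276-128270285), and 3.44% of all windows held one. The Irf2 window matched both motifs and the first Irf8 window matched GAS at 2 places, while the windows of Irf3, Irf5, Irf7, Irf9 and Stat3 held neither. A match describes letters in these windows and is not evidence of binding.

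The arrays differed in brightness, with a mean raw signal of 325.5 to 357.1 for Dnmt1+/+, 396.6 for Dnmt1-/- replicate 1, and 258.6 and 217.1 for Dnmt1-/- replicates 2 and 3, with 14699 to 16499 probes above background per array. Raw signals therefore cannot be set side by side across arrays, and the tests used background-corrected, quantile-normalized log2 signals. Dnmt1 RNA itself was 4.31-fold lower in Dnmt1-/- MEFs (limma adjusted p = 0.0019). All 11 tested housekeeping-type genes, Actb and Gapdh among them, missed the threshold. B2m, 1 of the 11, is also counted below among targets of IRF1 and GAS elements. It lay higher in Dnmt1-/- MEFs without overlap (0.49, limma adjusted p = 0.21).

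Among the members, Irf1 and Irf5 RNA was higher in Dnmt1-/- MEFs, and no member was called lower. Irf1 was 3.18-fold higher by its brightest probe and Irf5 about 2-fold higher, near the limit of detection. Irf9 was high on 1 Dnmt1-/- array and much less so on the other 2, Stat2 was lowest on Dnmt1-/- replicate 2 among the Dnmt1-/- arrays, and both missed the threshold. Irf2, Irf3 and Stat3 were present in all 6 samples with smaller differences, Irf7 was above background on 1 array and Irf8 on 0. A probe was called where the adjusted p of limma, over all 15795 probes tested, was under 0.05. With each gene represented by its tested probe of highest mean signal, 2 of 7 tested members rose, where 9.61% of all 8716 genes tested rose, and 0 fell, where 7.82% fell (17.4% changed in either direction). Over probes, 5 of 15 rose and 0 fell, where 8.48% of all probes rose and 7.69% fell (16.2% in either direction), and 4 of these 5 belong to Irf1. These shares are over members that passed the detection filter, which favours genes that are high in either group.

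**Figure D1:**
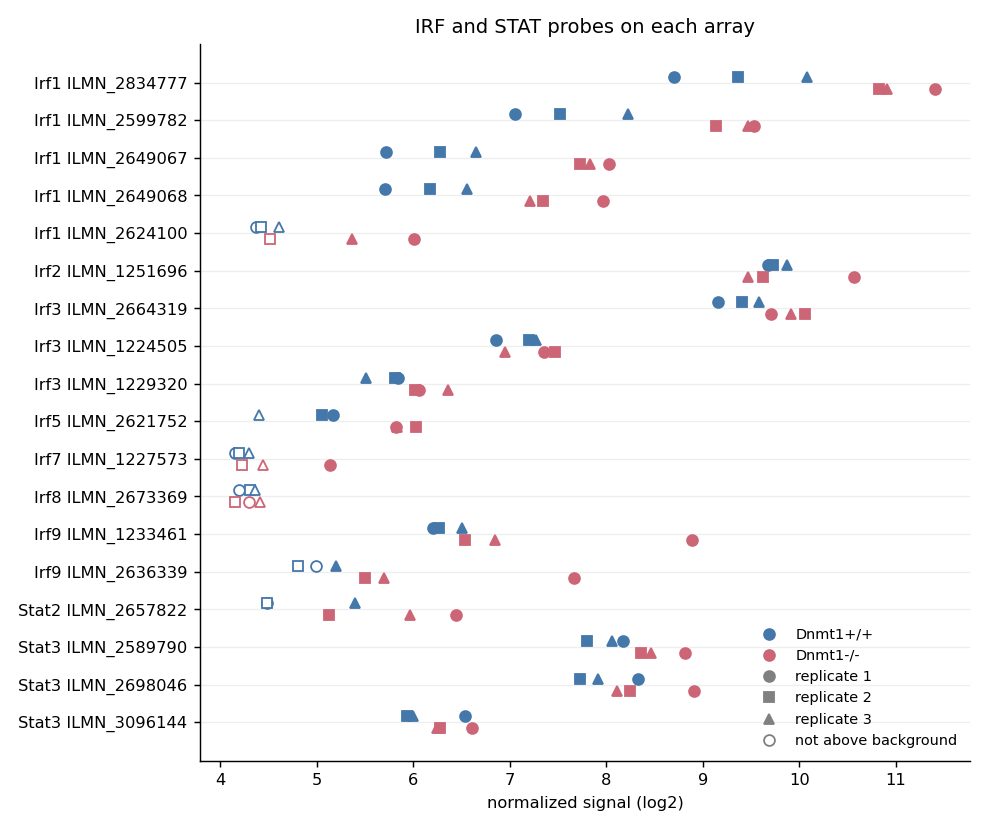
Normalized log2 signal (x axis) of each of the 18 IRF and STAT probes (rows) on the 3 Dnmt1+/+ arrays (blue) and the 3 Dnmt1-/- arrays (red), with the marker shape giving the replicate and open markers a signal that is not above background. The 4 tested Irf1 probes and the Irf5 probe lie apart by genotype, and both Irf9 probes lie far to the right on Dnmt1-/- replicate 1.

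Irf1, the interferon-induced activator of antigen presentation genes, has 5 probes on the array. Its brightest probe (ILMN_2834777) gave raw signals of 556.8, 840.1 and 1181 on Dnmt1+/+ replicates 1, 2 and 3, and of 3719, 1389 and 1172 on Dnmt1-/- replicates 1, 2 and 3. After normalization the log2 values were 8.70, 9.36 and 10.08 in Dnmt1+/+ MEFs, and 11.41, 10.83 and 10.91 in Dnmt1-/- MEFs. All 3 Dnmt1-/- values lay above all 3 Dnmt1+/+ values, and the Dnmt1+/+ arrays spread more widely (SD 0.69, n = 3) than the Dnmt1-/- arrays (SD 0.31, n = 3). On the raw scale Dnmt1-/- replicate 3, the dimmest array, lay just below Dnmt1+/+ replicate 3. The difference was 1.67 ± 0.34 (SE, log2), or 3.18-fold (limma adjusted p = 0.013).

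The other Irf1 probes gave like differences. ILMN_2599782 rose 3.45-fold (limma adjusted p = 0.0054), ILMN_2649067 3.12-fold (adjusted p = 0.0035) and ILMN_2649068 2.56-fold (adjusted p = 0.014), each with no overlap between the genotypes. Over the 4 tested probes the Dnmt1-/- arrays lay 3.50-fold to 4.08-fold over the Dnmt1+/+ mean on replicate 1, 2.30-fold to 2.92-fold on replicate 2 and 2.09-fold to 3.67-fold on replicate 3. The Irf1 excess was thus present on each Dnmt1-/- array. The fifth probe, ILMN_2624100, was above background only on Dnmt1-/- replicates 1 and 3 and was not tested. All 5 probes are annotated to the same transcript, so they are repeat readings of 1 gene and not replicates.

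The 4 Irf1 calls were not equally firm. ILMN_2599782 and ILMN_2649067 were called under every alternative run that keeps more than 1 Dnmt1-/- array. Their log2 differences were 1.31 to 2.10 and 0.90 to 1.86. The brightest probe (ILMN_2834777) lost its call without Dnmt1+/+ replicate 2 (limma adjusted p = 0.053) and with no detection filter (0.074). ILMN_2649068 lost its call without Dnmt1+/+ replicate 1 (0.051), without Dnmt1+/+ replicate 2 (0.053), with no detection filter (0.066) and with the replicate number as a block (0.053). The dimmer ILMN_2649067, at 1.64 ± 0.24 (SE) here, fell to 0.96 when background correction was left out and to 0.90 on the authors' own processed scale.

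**Figure D2:**
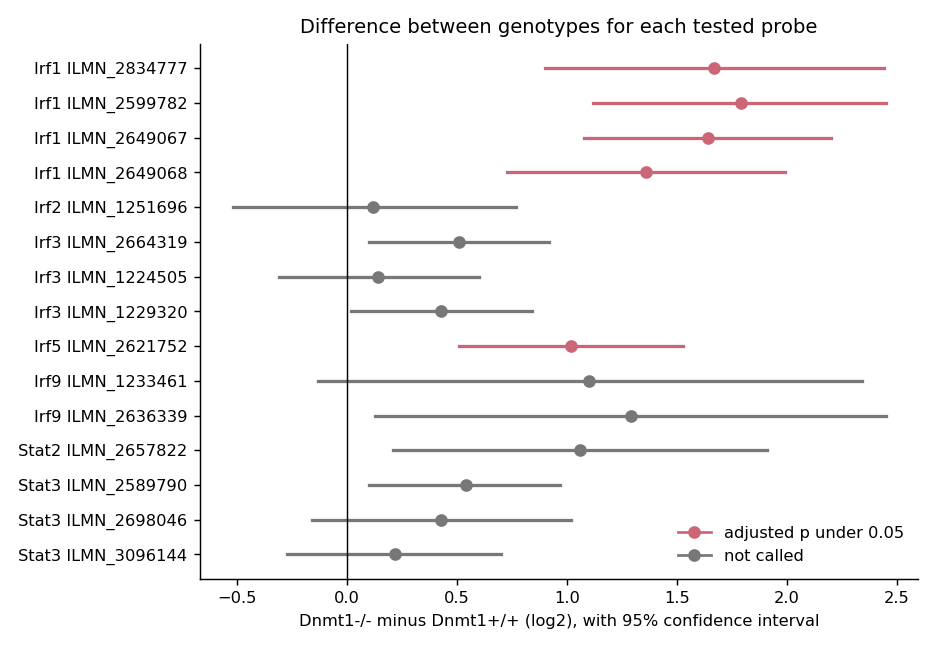
Difference between Dnmt1-/- and Dnmt1+/+ MEFs (x axis, log2) for the 15 tested probes, with points at the limma estimate and bars for the 95% confidence interval, red where adjusted p was under 0.05. The 4 Irf1 probes lie between 1.36 and 1.79 and the Irf5 probe at 1.02, while the intervals of Irf9 are the widest of the 15.

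Irf2, the competitor of IRF1, did not follow it as a group difference. Its probe (ILMN_1251696) measured 9.68, 9.73 and 9.87 in Dnmt1+/+ MEFs and 10.57, 9.62 and 9.47 in Dnmt1-/- MEFs (log2). It was highest on Dnmt1-/- replicate 1 and lowest on replicates 2 and 3, which both lay below every Dnmt1+/+ array. The difference was 0.12 (95% confidence interval -0.52 to 0.77, limma adjusted p = 0.80), and it was -0.22 without Dnmt1-/- replicate 1.

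Irf3, a factor that turns on interferon genes, was above background on all 6 arrays by each of its 3 probes. Its brightest probe (ILMN_2664319) measured 9.16, 9.41 and 9.58 in Dnmt1+/+ and 9.71, 10.06 and 9.91 in Dnmt1-/- MEFs. The genotypes did not overlap, and the difference was 0.51 (95% confidence interval 0.10 to 0.92), with a limma adjusted p of 0.090. A second probe (ILMN_1229320) gave 0.43 (adjusted p = 0.14) with no overlap, and the third (ILMN_1224505) gave 0.14 (adjusted p = 0.65) with overlap. With array weights the first and second probes were called (adjusted p = 0.021 and 0.043) and the third was not (-0.02).

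Irf5, which acts in the MyD88 branch and is best known from myeloid cells, was close to background. Its single probe (ILMN_2621752) had raw signals of 123.6, 122.9 and 104.4 in Dnmt1+/+ and 174.3, 130.3 and 114.2 in Dnmt1-/- MEFs, which overlap. Its signal exceeded background on 5 arrays, the exception being Dnmt1+/+ replicate 3. Normalized values were 5.17, 5.05 and 4.40 in Dnmt1+/+ and 5.82, 6.03 and 5.83 in Dnmt1-/- MEFs, with no overlap. Irf5 rose by 1.02 ± 0.22 (SE, log2, 95% confidence interval 0.51 to 1.53), or 2.03-fold (limma adjusted p = 0.019). The estimate was 1.82-fold when the undetected array is set to the lowest detected signal of that array, which is not a confidence limit. The call was lost without Dnmt1+/+ replicate 2 (limma adjusted p = 0.051), without Dnmt1-/- replicate 3 (0.061) and with no detection filter (0.063). Without Dnmt1-/- replicates 2 and 3, which leaves 1 Dnmt1-/- array and supports no call, the difference was 1.04. The log2 difference was 0.33 without background correction and 0.39 on the authors' processed scale, both called.

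Irf7 and Irf8 could not be tested. The Irf7 probe (ILMN_1227573), for the amplifier of type I interferon, had raw signals of 93.79, 97.61 and 101.3 in Dnmt1+/+ and 139.1, 93.35 and 94.65 in Dnmt1-/- MEFs, and was above background on Dnmt1-/- replicate 1 alone. The Irf8 probe (ILMN_2673369) gave 88.08 to 107.6 over the 6 arrays and was above background on 0 of them. Neither value shows that the RNA was absent, only that it was not detectable with these probes.

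Irf9 and Stat2, the DNA-binding subunit of ISGF3 and its STAT partner, were both highest on Dnmt1-/- replicate 1. The brighter Irf9 probe (ILMN_1233461) had raw signals of 162.2, 171.8 and 180.5 in Dnmt1+/+ MEFs and of 777.7, 148.5 and 145.0 in Dnmt1-/- MEFs. Its normalized values were 6.20, 6.27 and 6.50 against 8.89, 6.53 and 6.85. Dnmt1-/- replicate 1 was 5.92-fold over the Dnmt1+/+ mean, replicate 2 was 1.15-fold and replicate 3 1.44-fold over it. The SD was 0.16 in Dnmt1+/+ and 1.28 in Dnmt1-/- MEFs, and 0.539% of all genes tested had a Dnmt1-/- SD at least as large. The difference was 1.10 (95% confidence interval -0.13 to 2.34, limma adjusted p = 0.20).

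The second Irf9 probe (ILMN_2636339) had the same form. It measured 4.99, 4.80 and 5.20 in Dnmt1+/+ and 7.66, 5.50 and 5.70 in Dnmt1-/- MEFs, a difference of 1.29 (95% confidence interval 0.13 to 2.45, limma adjusted p = 0.12), and was above background on 1 Dnmt1+/+ array and on all 3 Dnmt1-/- arrays. Without Dnmt1-/- replicate 1 the differences of the probes were 0.36 (adjusted p = 0.21) and 0.56 (adjusted p = 0.065). With array weights the second probe was called (0.94, adjusted p = 0.039) and the first was not (0.67, adjusted p = 0.13).

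Stat2 (ILMN_2657822) measured 4.48, 4.48 and 5.39 in Dnmt1+/+ and 6.44, 5.13 and 5.97 in Dnmt1-/- MEFs. Only 1 Dnmt1+/+ array was above background, against all 3 Dnmt1-/- arrays, and the genotypes overlapped, with Dnmt1+/+ replicate 3 above Dnmt1-/- replicate 2. Raw signals were 109.1, 109.8 and 129.0 against 221.2, 110.5 and 117.0. The difference was 1.06 (95% confidence interval 0.21 to 1.91, limma adjusted p = 0.088). It passed the threshold without Dnmt1+/+ replicate 3 (1.36, adjusted p = 0.048) and without Dnmt1-/- replicate 2 (1.46, adjusted p = 0.026), and was 0.70 (adjusted p = 0.18) without Dnmt1-/- replicate 1. With median scaling between arrays it was 1.25, just past the threshold, and with array weights it was 1.15 (adjusted p = 0.016).

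Stat3, the gp130 factor, was well above background in all 6 samples. Its brightest probe (ILMN_2589790) measured 8.17, 7.80 and 8.06 in Dnmt1+/+ and 8.82, 8.36 and 8.46 in Dnmt1-/- MEFs, with no overlap and a difference of 0.54 (95% confidence interval 0.10 to 0.97, limma adjusted p = 0.090). The other 2 probes gave 0.43 (adjusted p = 0.28) and 0.22 (adjusted p = 0.51), both with overlap. With array weights the brightest probe was called (0.57, adjusted p = 0.022) and the others were not. Over all members, the genotypes did not overlap for 5 of 7 tested genes (Irf1, Irf3, Irf5, Irf9 and Stat3), each higher in Dnmt1-/- MEFs. This compares with 18.7% of all genes that lay higher without overlap and 40.3% that did not overlap in either direction. Over probes, 10 of 15 lay higher without overlap, against 16.6% of all probes (38.1% in either direction). All 15 tested probes had a higher mean in Dnmt1-/- MEFs, and 11 of 15 were highest on Dnmt1-/- replicate 1, as were 23.1% of all probes tested. Probes of 1 gene are not independent.

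**Figure D3:**
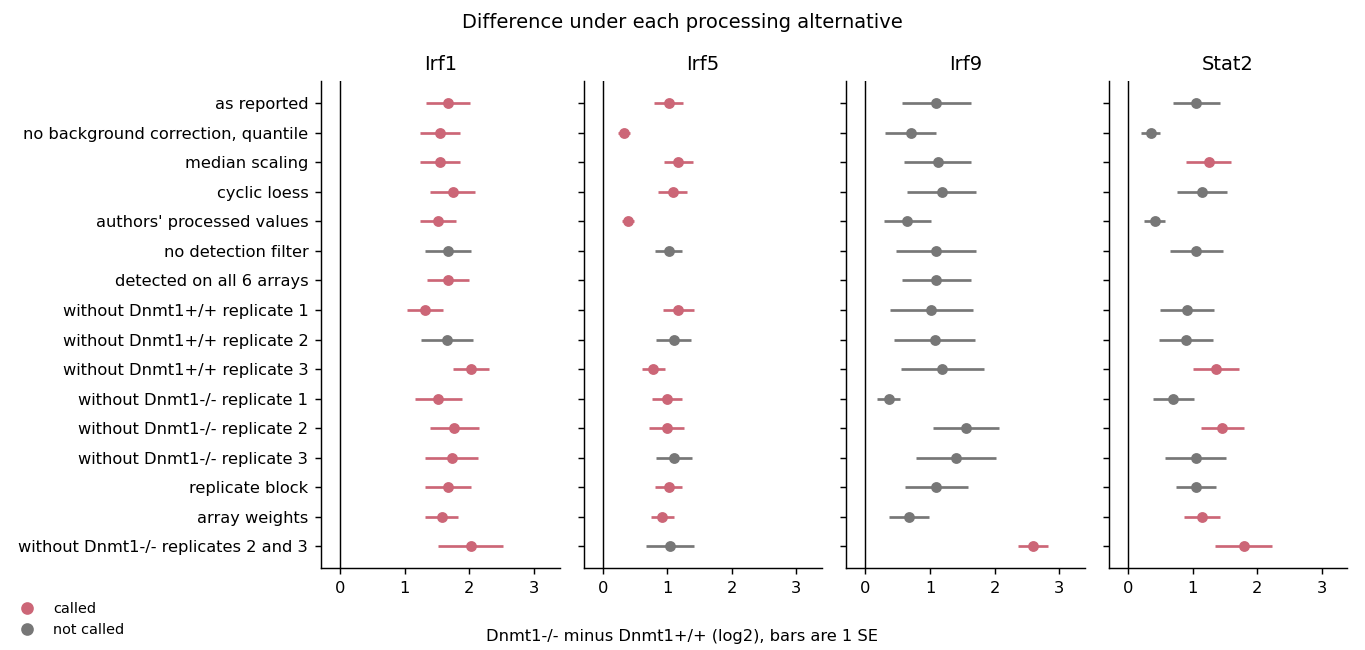
Log2 difference between Dnmt1-/- and Dnmt1+/+ MEFs (x axis, bars are 1 SE) for the brightest tested probe of Irf1, Irf5, Irf9 and Stat2 under the reported processing and each alternative (rows), red where adjusted p was under 0.05. Irf1 stays between 1.32 and 2.03, whereas Irf9 runs from 0.36 without Dnmt1-/- replicate 1 to 2.60 without replicates 2 and 3, a setting added after the arrays were seen that leaves 1 Dnmt1-/- array and supports no call.

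Other IRF and STAT genes were tested where bright enough. Of 5 tested, Stat5a rose at least 3.89-fold (limma adjusted p = 0.00047), from 4.44, 4.70 and 5.20 in Dnmt1+/+ to 7.10, 6.75 and 7.17 in Dnmt1-/- MEFs, and unlike Irf9 it lay high on each Dnmt1-/- array. Stat6 (0.41, adjusted p = 0.10) and the IRF2-binding corepressor genes Irf2bp1 (-0.26), Irf2bp2 (-0.37) and Irf2bpl (0.27) were not called. Irf4, Stat4 and Stat5b were too dim to test. Stat5a was above background on only 1 Dnmt1+/+ array. Over all genes tested, 9.61% rose.

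Upstream of these factors, 0 tested ligands and 0 tested receptors were called, and most ligands were too dim to test. Of 25 ligand genes with a probe, 4 were tested and 0 called. Ifna6, Ifnab, Ctf1 and Clcf1 had differences of 0.08, 0.09, -0.54 and -0.33, and Ifnb1 and Ifng were too dim to test. Of 12 receptors with a probe 7 were tested and 0 called, with Ifngr1 at -0.21, Ifngr2 at 0.09, Ifnar2 at -0.19 and Il6ra at 1.41 (limma adjusted p = 0.066). With median scaling, with array weights or without Dnmt1-/- replicate 2, 1 receptor was called higher. Of 2 tested JAK kinase genes Jak2 rose 1.58-fold (limma adjusted p = 0.043), and Tyk2 was at 0.75 (adjusted p = 0.12), but the Jak2 call was lost when any 1 of the 6 arrays was left out. Of 15 adaptors and kinases, 2 rose, where 9.61% of all genes tested rose. They were Sting1, the adaptor of cytosolic DNA sensing (at least 3.41-fold, adjusted p = 0.00041), and Ikbke, a kinase of IRF3 and IRF7 (at least 1.86-fold, adjusted p = 0.011). Without Dnmt1+/+ replicate 2 the count was 1, and with detection required on all 6 arrays it was 0. Sting1 was above background on 0 Dnmt1+/+ arrays and Ikbke on 1. Among the 12 adaptors and kinases above background on all 3 Dnmt1+/+ arrays 0 rose, where 6.47% of all such genes rose. The relative of Ikbke, Tbk1, was at 0.21 and Mavs at 0.08, both uncalled. Of 21 inhibitors, 4 rose and 1 fell, where 9.61% of all genes tested rose and 7.82% fell. The phosphatase Ptpn6 rose at least 1.95-fold, Trim21 at least 2.13-fold, Otud5 1.63-fold and Rbck1 1.60-fold, and Socs2 fell 2.02-fold. Ptpn6 and Trim21 were above background on 0 Dnmt1+/+ arrays. Among the 19 inhibitors above background on all 3 Dnmt1+/+ arrays 2 rose and 1 fell. Median scaling left 2 inhibitors risen. Leaving out Dnmt1+/+ replicate 1 or 2 left 1 inhibitor risen, and leaving out Dnmt1+/+ replicate 2 or Dnmt1-/- replicate 3 left 0 fallen. Socs3, a feedback inhibitor and STAT3 target, was at 0.64 (adjusted p = 0.079).

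Downstream, called genes were counted in 3 lists of targets, beside the 9.61% of all genes tested that rose and the 7.82% that fell. Of 34 ISGF3 targets with a probe 16 were tested, of which 9 rose, 1 fell and 6 were not called, with a median difference of 1.48 against -0.05 over all genes tested. Ifi27 rose 9.83-fold (limma adjusted p = 0.0036), Parp14 at least 5.22-fold (0.022), Bst2, which tethers virions, 6.33-fold (0.00080) and Samd9l 6.07-fold (0.011), while Trim25, a ubiquitin ligase of RNA sensing, fell at least 3.81-fold (2e-05). Of 27 targets of IRF1 and GAS elements with a probe 16 were tested, of which 10 rose, 0 fell and 6 were not called, with a median of 2.07. Casp1, Psmb8, Tap2 and Gbp2 rose at least 50.3-fold, 33.3-fold, 9.60-fold and 7.98-fold, and Tapbp, which loads peptides on class I molecules, rose 6.69-fold. Of 19 tested STAT3 targets 2 rose, Cebpb (1.54-fold, adjusted p = 0.038) and Bcl3 (at least 1.40-fold, adjusted p = 0.0082), with a list median of -0.09.

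A target that is silent in Dnmt1+/+ MEFs could be tested only if it was high in Dnmt1-/- MEFs. Among targets above background on all 3 Dnmt1+/+ arrays, 6 of 11 ISGF3 targets and 4 of 7 IRF1 and GAS targets rose, where 6.47% of all such genes rose. For STAT3 targets it was 1 of 17. Another 18 ISGF3 targets and 11 IRF1 and GAS targets with a probe were too dim to test. Without Dnmt1-/- replicate 1 the counts over both lists were 9 and 11 risen. The ISGF3 count fell to 3 without Dnmt1+/+ replicate 1 and to 4 without Dnmt1+/+ replicate 2, and the IRF1 and GAS count to 6 without Dnmt1+/+ replicate 2.

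The target lists differed in size between the Dnmt1-/- arrays as Irf9 did. The median over the Dnmt1+/+ mean was 3.03 on replicate 1, 0.89 on replicate 2 and 0.90 on replicate 3 for ISGF3 targets, and 3.22, 1.27 and 1.05 for IRF1 and GAS targets. For STAT3 targets it was 0.13, 0.14 and -0.01, and for all genes tested -0.05, -0.05 and -0.04. Receptors (0.46, -0.08 and -0.43) and fibroblast markers (0.79, -0.38 and -0.11) were also highest on replicate 1, by less. Ligands were lowest there (-0.34, 0.26 and 0.14). Of the 16 ISGF3 targets 14 were highest on Dnmt1-/- replicate 1, as were 2227 of all 8716 genes tested.

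**Figure D4:**
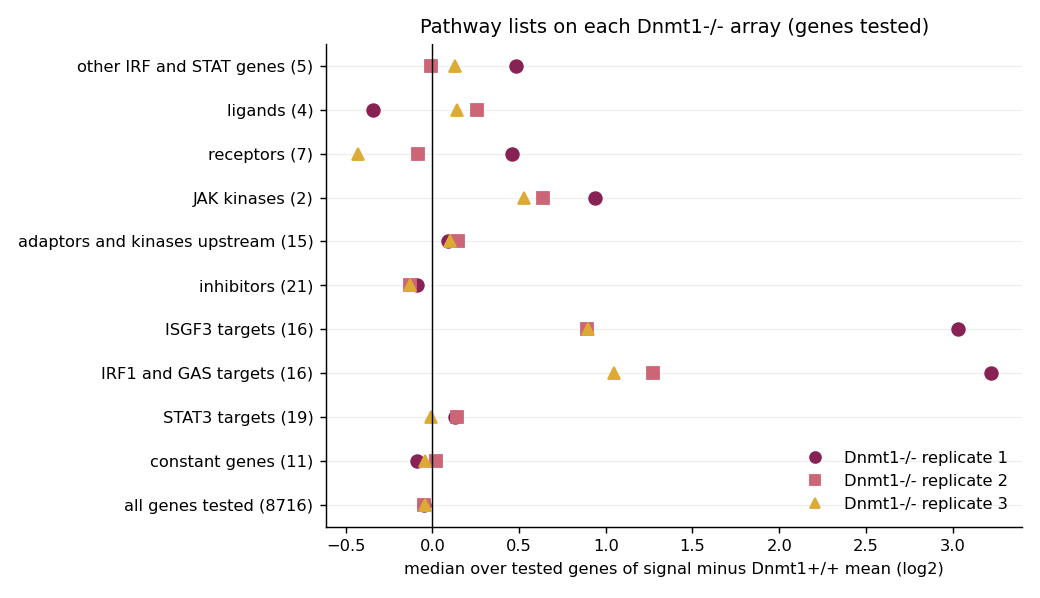
Median over the tested genes of each pathway list (rows, number tested in brackets) of the log2 signal minus the Dnmt1+/+ mean (x axis), for each Dnmt1-/- array. ISGF3 targets and IRF1 and GAS targets lie near 3 on replicate 1 and near 1 on replicates 2 and 3, and the other lists lie within 1 of zero.

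The genes most like a called member over the 6 arrays were found by Pearson correlation of normalized values with 8715 other tested genes, as a description with no test. The 6 arrays fall into 2 genotypes, so any gene that differs between them shares part of this pattern. For Irf1 they were Synpo (r = 0.998), Naxe, Tor3a, Hsd3b7 (each 0.997) and Cavin3 (0.996). Synpo measured 7.15, 7.94 and 8.87 in Dnmt1+/+ and 10.63, 9.80 and 10.14 in Dnmt1-/- MEFs, and so shared the order of the Dnmt1+/+ arrays with Irf1. For Irf5 they were Fam120b (0.991), Cldnd1 (0.990), Alkbh2 (0.985), Sdc1 (0.979) and Pole4 (0.976). For Irf9, chosen after its values were seen, they were Hexdc (0.998), Irgm2 and Ccng2 (each 0.994), Capn7 (0.993) and Sec24d (0.989). Of these, Irgm2, an interferon-induced GTPase, measured 9.19 on Dnmt1-/- replicate 1 and 5.26 and 5.83 on the others. Among the members, r was 0.894 for Irf1 with Stat2, 0.862 for Irf1 with Irf3 and 0.617 for Irf1 with Irf5. For Irf9 it was 0.87 with Irf2, 0.84 with Stat3 and 0.838 with Stat2, so Stat2 was not its closest member.

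Irf5 and Irf8 are best known from blood cells, so markers of other cell types were read on the same arrays. Of 27 blood cell markers with a probe, 21 were above background on 0 arrays, Ptprc, Lyz2 and Spi1 among them, with 1 to 2 detected per Dnmt1+/+ array and 4 to 5 per Dnmt1-/- array. Their summed raw signal was 2875 to 3075 in Dnmt1+/+ and 2643 to 3464 in Dnmt1-/- MEFs. Most of these probes were at background and raw signals follow array brightness, so the sums cannot show whether blood cell RNA differed. The 4 tested were Cd14, Cd53 and Hba-a1, which rose (1.97-fold, at least 1.30-fold and at least 1.55-fold), and Csf1r (0.41, limma adjusted p = 0.12). Endothelial markers were above background on no array for 7 of 9 genes and epithelial markers for 4 of 7. The tested ones were all called, with Eng (at least 1.67-fold) and Krt14 (at least 1.37-fold) higher and Krt19 (at least 1.34-fold) lower in Dnmt1-/- MEFs. Of 16 fibroblast markers 13 were tested, with Thy1 and Fn1 lower (at least 2.11-fold and 4.20-fold) and S100a4 2.98-fold higher in Dnmt1-/- MEFs. Over all genes tested, 9.61% rose and 7.82% fell. A marker above background in only 1 genotype could be tested only if all 3 arrays of that genotype detected it. Csf1r, Cd53, Hba-a1 and Krt14 were above background on 0 Dnmt1+/+ arrays, and Krt19 and Thy1 on 0 Dnmt1-/- arrays. For these the filter set the direction of any call. The part of the marker differences in the IRF and STAT values was not tested. In such bulk RNA, more cells that express a gene and more RNA per cell cannot be told apart.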

How the data were processed

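Total RNA was hybridised to Illumina MouseWG-6 v2.0 BeadChips (1 colour). The authors deposited raw probe intensities on a linear scale with a detection p-value per probe and array, and intensities they processed with lumi (version not given in the sources used here) by background subtraction that forces positive values, variance-stabilizing transformation and robust spline normalization. The processed values are on a linear scale, and how they returned to it is not given in the sources used here. They were used only as an alternative, after log2.

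Here the raw intensities of 45281 probes went through the neqc function of limma (version 3.58.1, R version 4.3.3), which estimates background from the detection p-values, adds 16, quantile normalizes and takes log2. Probes with detection p under 0.01 on at least 3 of 6 arrays were compared between genotypes by two-sided lmFit and eBayes tests without covariates, and p-values were adjusted by Benjamini-Hochberg across the 15795 probes. Calls are adjusted p under 0.05. Symbols came from the platform annotation, where 34885 probes have 1 gene symbol, 18 have several and 10378 none, and all 18 member probes matched RefSeq (GRCm38.p6) by gene identifier. A fold is "at least" where arrays of the lower group were not above background: each such array took the probe's own value or the array's lowest detected signal, whichever was higher. The number of arrays limits the precision. Named genes were the members, Dnmt1, the called genes of each list (at most 5, by size of difference), every tested gene of small lists, and the 5 genes most correlated with each called member. Others named, among them uncalled genes and those for Irf9, were chosen after their values were seen. Members and lists were chosen with earlier results of these data known, and no set test was run. Steps were tested on simulated data, with changes placed only in brighter probes and with a small, even spread. Probes as dim as that of Irf5, or as variable as those of Irf9, were not covered by it. Probe sequences were not used here, so where a probe lies in its transcript is not given, and 2 further IRF and STAT genes of the lists were not analysed here. Alternatives were 4 other scalings, 2 other filters, each array left out, a replicate block, array weights and, added after seeing the data, leaving out Dnmt1-/- replicates 2 and 3.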

Additional observations from a re-analysis of the deposited data

How the results depend on the processing

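Over the 15 tested member probes and all alternatives, 197 values kept their direction and their side of the threshold, 10 lost the call, 11 gained it and 4, none of them called, changed sign. Those 4 were Irf2 with median scaling (-0.04), without Dnmt1-/- replicate 1 (-0.22, in a range of -0.22 to 0.33 over single arrays left out) and with array weights (-0.12), and Irf3 (ILMN_1224505) with array weights (-0.02). The cause was not tested.

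Against 2 member genes and 5 member probes called higher as reported, array weights, which gave Dnmt1+/+ replicate 2 the most weight (3.54) and Dnmt1-/- replicate 1 the least (0.299), called 5 genes (Irf1, Irf3, Irf5, Stat2 and Stat3) and 10 probes, no detection filter 0 genes and 2 probes, and a filter on all 6 arrays, which leaves out Irf5, 1 gene. Leaving out single arrays gave 0 to 3 genes and 2 to 6 probes, with 0 genes without Dnmt1+/+ replicate 2 and 1 without Dnmt1-/- replicate 3. 0 members were called lower in any of these, and all 15 tested probes had the higher mean in Dnmt1-/- MEFs by limma as reported, so 0 had an unadjusted p under 0.05 in the lower direction. Over all genes, 838 were called higher and 682 lower as reported, 1349 and 1416 with array weights, 476 and 399 detected on all 6 arrays, 554 higher with no filter, 399 lower with the replicate block, and 458 to 852 higher and 282 to 675 lower with single arrays left out. Over the pathway lists 29 were higher and 2 lower as reported, and 36 and 7 with array weights. The counts were 13 and 1 detected on all 6 arrays, and 19 and 1 with no filter. Without background correction 19 were higher. With single arrays left out, 14 to 28 were higher and 1 to 5 lower.

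Replicate numbers did not pair the arrays: deviations from the group means correlated at -0.229, 0.335 and -0.14 for equal numbers. With the replicate block 2 member genes and 4 member probes were called, with ILMN_2649068 of Irf1 lost, and the brightest Irf1 probe (ILMN_2834777) had adjusted p = 0.042. Signals near background, as for Irf5 and Stat2, depend most on the background correction.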
